A study of Mus musculus with 18 samples.

Results

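The regions described here carried H3K9me3 in wild-type mESCs and had no called peak in either knockout. They were found by merging overlapping or touching H3K9me3 peaks of 6 peak lists on chromosomes 1 to 19 into 154338 regions, of which 73824 had a peak in both wild-type libraries. Of these, 3364 had no peak in any of the 4 knockout libraries, or 4.56% of the wild-type regions, and they are called the shared lost regions below. The calls of all 6 libraries chose them, so the absence of knockout peaks is a description and not a finding. A peak list gives no reads outside its peaks, so the knockout level of H3K9me3 in these regions is not known, and a missing peak may be a level below the calling threshold as well as no H3K9me3.

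The cells were E14TG2a mESCs, a mouse embryonic stem cell line grown in serum, and chromatin was precipitated with an antibody against H3K9me3. Wild-type cells, cells without UHRF1 (*Uhrf1* KO) and cells without DHX9 (*Dhx9* KO) made up the 3 groups, each with 2 libraries that the labels give as rep1 and rep2. The *Uhrf1* KO lines are single-cell clones made with CRISPR-Cas9 in mESCs that hold an inducible silencing system, a TetR-KRAB fusion and an *8x-tetO-eGFP* reporter. The paper names the wild-type cells compared with them *8x-tetO-eGFP* wild type, so the reporter is not a difference between these groups. How the *Dhx9* KO line was made is not given in the sources used here, nor whether the 2 libraries of a knockout come from 1 clone or from several. The other 12 samples of the series were not analysed here.

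Trimethylation of lysine 9 of histone H3 marks heterochromatin, the compact and mostly silent part of the genome, and in mESCs it covers transposons, imprinted loci and clusters of repeated genes. UHRF1 binds hemimethylated CpG sites and H3K9me3 and brings the maintenance methyltransferase DNMT1 to newly replicated DNA. DHX9 is a helicase that unwinds RNA and RNA-DNA hybrids and takes part in transcription and RNA processing.

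Libraries differed in ways that bear on a missing peak. ChIP reads inside peaks numbered 6542496 in *Uhrf1* KO replicate 1 and from 16558383 to 20600757 in the other 5 libraries, and *Uhrf1* KO replicate 1 had the fewest peaks, 67953 against 90949 to 124071. Background reads at peaks with identical limits were the same between wild-type and *Dhx9* KO and differed in nearly all such peaks between these lists and *Uhrf1* KO, so wild-type and *Uhrf1* KO calls were made against different background counts. The *Uhrf1* KO replicates shared theirs. The folds give a ratio of ChIP to background library size of 0.688 and 1.27 in *Uhrf1* KO replicates 1 and 2, so replicate 1 was the smaller library. In wild-type and *Dhx9* KO this ratio ran from 0.860 to 0.999. On chromosome 8, regions kept in all 6 libraries had a median log2 fold that differed from the library median by −0.35 to −0.52, below it in all 6 libraries.

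A few sequences show how different the shared lost regions were in base content. Each is the central stretch of a region from the GRCm38.p6 plus strand, in lower case with every CpG, the site of DNA methylation, in capitals. The first lies in the ribosomal DNA copy on chromosome 17, the region with most reads (chr17:39845451-39845750, 38 CpGs). The second lies in the region with the strongest wild-type enrichment among those of 2 kb or longer (chr8:20648451-20648750, no CpG), and the next in the region that ranked 3 by that measure (chr11:91754951-91755250, no CpG). The fourth is from an intron of *Esrrb* (chr12:86503051-86503350, 5 CpGs). The last 2 are short, CpG-dense regions in no gene of the annotation used (chr3:5860351-5860650, 16 CpGs, and chr16:17222201-17222400, 19 CpGs). The sequence family of these 2 was not determined. Both had many background reads for their length, and whether reads of several sequence copies were placed there was not tested.
Ribosomal DNA: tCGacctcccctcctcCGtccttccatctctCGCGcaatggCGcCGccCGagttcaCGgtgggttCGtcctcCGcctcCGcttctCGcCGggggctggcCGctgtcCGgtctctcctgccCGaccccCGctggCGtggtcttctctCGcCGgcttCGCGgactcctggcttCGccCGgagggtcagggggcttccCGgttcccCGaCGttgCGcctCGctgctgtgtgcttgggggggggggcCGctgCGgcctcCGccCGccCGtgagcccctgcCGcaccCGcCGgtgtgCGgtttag
Chromosome 8 repeat: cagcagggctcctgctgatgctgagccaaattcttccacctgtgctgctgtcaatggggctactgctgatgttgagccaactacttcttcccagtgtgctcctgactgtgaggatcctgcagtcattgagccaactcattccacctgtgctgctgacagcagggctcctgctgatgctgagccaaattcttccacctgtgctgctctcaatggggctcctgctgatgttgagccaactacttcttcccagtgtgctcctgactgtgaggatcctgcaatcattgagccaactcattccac
Chromosome 11 intergenic: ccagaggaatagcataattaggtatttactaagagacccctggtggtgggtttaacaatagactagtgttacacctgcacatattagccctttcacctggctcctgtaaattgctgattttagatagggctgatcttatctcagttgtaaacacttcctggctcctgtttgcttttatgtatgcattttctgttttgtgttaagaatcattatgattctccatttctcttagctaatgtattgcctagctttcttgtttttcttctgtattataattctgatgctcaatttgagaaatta
Esrrb intron: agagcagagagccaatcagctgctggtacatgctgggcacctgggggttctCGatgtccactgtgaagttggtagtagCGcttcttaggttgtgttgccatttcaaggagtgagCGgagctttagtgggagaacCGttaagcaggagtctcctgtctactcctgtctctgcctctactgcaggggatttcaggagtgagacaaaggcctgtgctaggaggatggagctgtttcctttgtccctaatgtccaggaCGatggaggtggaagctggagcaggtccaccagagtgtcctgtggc
Chromosome 3 CpG-dense: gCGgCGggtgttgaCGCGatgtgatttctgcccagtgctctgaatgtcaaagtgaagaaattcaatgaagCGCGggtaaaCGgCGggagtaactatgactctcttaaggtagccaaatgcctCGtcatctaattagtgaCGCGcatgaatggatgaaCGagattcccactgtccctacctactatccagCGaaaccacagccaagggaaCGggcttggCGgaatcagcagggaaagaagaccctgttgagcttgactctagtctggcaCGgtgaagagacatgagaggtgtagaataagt
Chromosome 16 CpG-dense: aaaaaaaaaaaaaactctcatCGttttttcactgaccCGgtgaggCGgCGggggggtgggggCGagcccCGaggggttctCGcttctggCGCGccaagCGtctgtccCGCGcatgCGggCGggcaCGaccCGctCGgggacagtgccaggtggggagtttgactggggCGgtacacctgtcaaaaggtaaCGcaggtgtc

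The shared lost regions were short and weakly enriched in wild-type cells. They covered 10.7 Mb with a median length of 2800 bp, against 6600 bp for the 34626 regions kept in all 6 libraries and 4600 bp for the 7334 regions that lacked a peak in both *Uhrf1* KO libraries only. Enrichment is given as the log2 fold of ChIP over background reads, each relative to library size, and the lower of the 2 wild-type values was used. Its median was 0.63 in the shared lost regions, 0.77 in regions lost only in *Uhrf1* KO, 1.05 in the 509 regions lost only in *Dhx9* KO and 1.31 in regions kept in all 6. Of the shared lost regions, 60.9% had a lower log2 fold under 0.75 and 22.9% (772 regions) reached 1. Part of these differences can follow from the rule. Regions were merged over all 6 lists, and only wild-type peaks could enter a shared lost region, so the other classes could grow longer. The highest fold of a library in a region was taken, so regions with more peaks could also reach higher values. The size of this part was not tested.

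**Figure D1:**
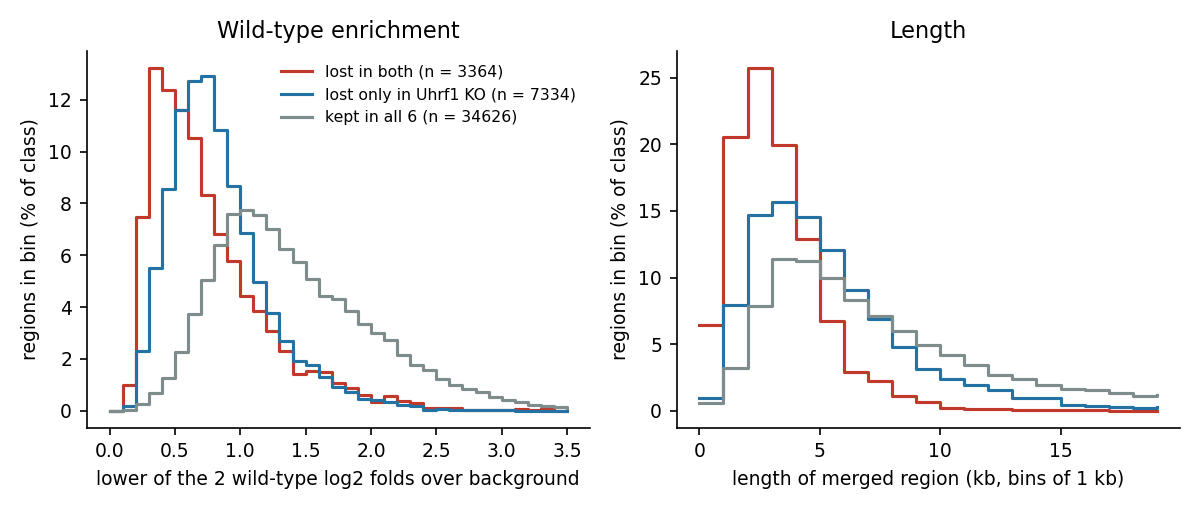
Distribution of wild-type enrichment (left, lower of the 2 wild-type log2 folds in bins of 0.1, shown up to 3.6) and of region length (right, kb, shown up to 20 kb), each as the percentage of regions of a class per bin, for regions lost in both knockouts, lost only in *Uhrf1* KO and kept in all 6 libraries. The regions lost in both knockouts lie furthest to the left in both plots, with medians of 0.63 and 2800 bp against 1.31 and 6600 bp for the kept regions. Knockout peaks could lengthen the other classes only, so part of the difference in length follows from the rule.

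Read counts behind these folds were modest. A shared lost region held a median of 84 ChIP reads over 56 background reads in wild-type replicate 1 and 77 over 54 in replicate 2. Per kb this was 38.4 and 37.0 ChIP reads, against 51.2 and 49.5 in kept regions, while background was 25 reads per kb in both replicates against 22.6 in both for kept regions. The wild-type libraries differed by a median of 0.19 in log2 fold at the same region and by up to 0.76 in 95% of the regions, with 1661 regions higher in replicate 1 and 1703 in replicate 2, so neither library was the stronger. In 3273 regions (97.3%) each wild-type library had a single peak, and in 39.1% of the 3364 regions both libraries covered at least 80% of the length, against 19.5% of all wild-type regions. The latter include regions that knockout peaks had widened.

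The lowest enrichment that was called differed between the lists. Among peaks of 2000 to 3800 bp, the 5th percentile of called log2 folds was 0.38 in both wild-type libraries, 0.54 and 0.40 in *Uhrf1* KO replicates 1 and 2, and 0.35 and 0.37 in *Dhx9* KO replicates 1 and 2. Of the 1537 shared lost regions of that length, 931 (60.6%) had a lower wild-type log2 fold above the value for *Uhrf1* KO replicate 1, and 1359 (88.4%) above that for *Dhx9* KO replicate 1. Few reached the median of the called folds, from 2.99% for *Uhrf1* KO replicate 1 to 26.7% for *Dhx9* KO replicate 1. The part that calling thresholds play in the missing peaks was not tested, because knockout reads outside peaks were not analysed here.

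Many other wild-type regions came close to the rule. Besides the 3364 regions with none, 6784 wild-type regions had a peak in 1 *Dhx9* KO library and no other knockout library, and 1096 had a peak in 1 *Uhrf1* KO library and no other. A peak was missing from both *Uhrf1* KO libraries in 17482 regions (23.7%) and from both *Dhx9* KO libraries in 4969 (6.73%), and the shared lost regions are the regions that these sets have in common. They made up 19.2% of the first set and 67.7% of the second. The 2 comparisons share the wild-type libraries, so this overlap is given as a count only.

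Libraries whose calls had not chosen a region were used to check it, but the choice was not fully independent of them. Merging used the lists of all libraries, so peaks of the read libraries also set the limits of regions. A knockout peak of the read replicate could join a region to one of the choosing replicate and so keep it from being chosen. Regions were chosen with replicate 1 alone, by a peak in the wild-type library and none in either knockout library, which gave 15753 regions, and 7463 of them (47.4%) also had a peak in wild-type replicate 2. Of those 7463, 68.5% had no peak in *Uhrf1* KO replicate 2 and 57.6% had none in *Dhx9* KO replicate 2, against 25.6% and 17.0% of the 73824 wild-type regions. With replicate 2 choosing, 8734 of 18624 regions (46.9%) had a peak in wild-type replicate 1, and 96.2% and 40.4% of these lacked a peak in replicate 1 of *Uhrf1* KO and *Dhx9* KO, against 46.3% and 14.8%. The chosen regions were missing from the libraries that did not choose them more often in all 4 readings, and 45.1% and 38.5% of them lacked a peak in both knockouts, against 11.8% and 10.1% of the wild-type regions. Those that lacked both are the 3364 shared lost regions in either direction. The shares for both knockouts thus rest on the same calls as the rule. No test was made on these shares. Weak regions were missing more often in general, with no peak in either *Dhx9* KO library for 15.4% of the weakest quintile of wild-type regions against 3.47% of the strongest. By length it was 32.1% of wild-type regions under 1 kb against 0.718% of those of 8 kb or more. The parts that strength, length and merging play in the check were not tested.

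**Figure D2:**
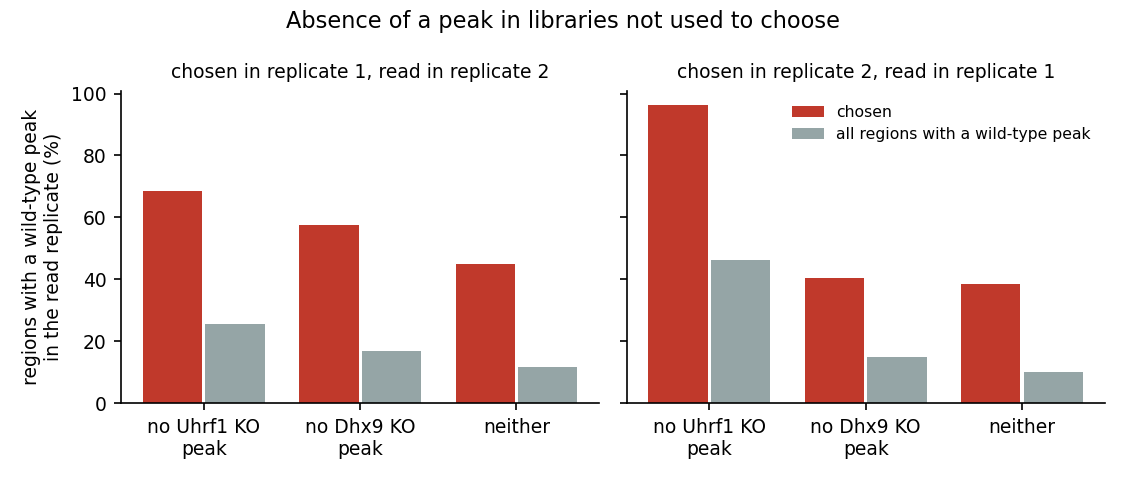
Percentage of regions without a peak (vertical axis) in the *Uhrf1* KO, the *Dhx9* KO or both libraries of the replicate that did not choose them, among regions with a wild-type peak in that replicate. Red bars are regions chosen by the other replicate and grey bars all regions with a peak in both wild-type libraries. Peaks of all libraries, those read included, set the limits of the regions. Red bars reach 68.5%, 57.6% and 45.1% in the left plot and 96.2%, 40.4% and 38.5% in the right plot, above the grey bars in each case, which stand at 11.8% and 10.1% for both libraries.

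The share of wild-type regions lost in both knockouts fell with length and with enrichment. It was 21.1% of the 1024 regions under 1 kb and 0.411% of the 21181 regions of 8 kb or more. Knockout peaks add to the length of a merged region, so the fall with length is partly set by the rule. Across quintiles of the lower wild-type log2 fold it went from 11.7% in the weakest to 1.46% in the strongest. Strong regions were also included, with 76 of the 7463 wild-type regions that had a log2 fold of 2 or more.

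Base content differed as well. The median GC content was 47.8% in the shared lost regions, 47.1% in regions lost only in *Uhrf1* KO, 44.8% in those lost only in *Dhx9* KO and 44.6% in regions kept in all 6, and the share lost in both rose from 0.975% in the lowest GC quintile to 8.91% in the highest. The order was the same among regions of similar strength and length. Within a log2 fold of 0.5 to 1 and a length of 2000 to 3800 bp, the share rose from 4.42% (38 of 859) to 18.5% (269 of 1452). The rise was not particular to the shared lost regions. The share lost only in *Uhrf1* KO went from 2.14% in the lowest GC quintile to 16.2% in the highest. Within the same limits of strength and length it went from 6.17% to 18.5%. Repeats, taken as the soft-masked bases of the reference, made up a median of 23.2% of a shared lost region and 35.9% of a kept region. Median CpG density was 10.6 per kb in the shared lost regions and 9.80 in kept regions. It was 9.11 in regions lost only in *Uhrf1* KO and 10.0 in those lost only in *Dhx9* KO. The share lost in both was 6.53% in the highest CpG quintile and 3.73% to 4.58% in the other quintiles. The letters TGCCGC, the core motif of ZFP57, a protein that holds H3K9me3 at imprinted sites, were searched on both strands of the central 300 bases and occurred in 3.03% of the shared lost regions and 3.15% of all wild-type regions.

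**Figure D3:**
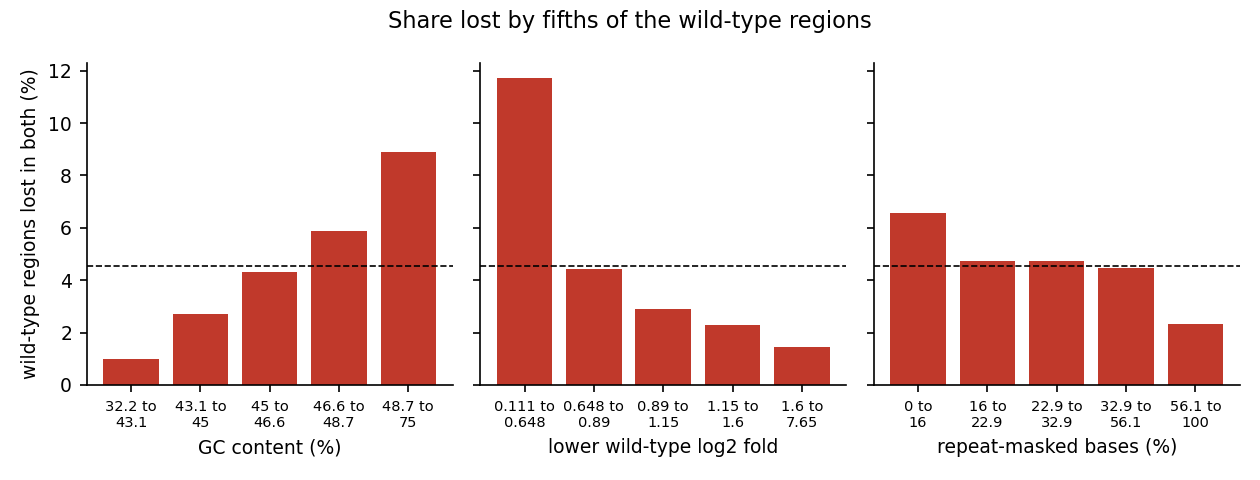
Percentage of wild-type regions lost in both knockouts (vertical axis) in 5 equal groups by GC content, by the lower wild-type log2 fold and by repeat-masked bases, with the range of each group under its bar. The dashed line is the share over all wild-type regions (4.56%). The share rises from 0.975% to 8.91% with GC content and falls from 11.7% to 1.46% with enrichment and from 6.55% to 2.32% with repeat content.

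The 772 shared lost regions with a log2 fold of at least 1 had a similar GC content, with a median of 48.0% against 44.9% in all wild-type regions of that strength, and they were shorter (1400 bp against 4800 bp). Of them, 50.9% lay between genes, against 61.5% of all wild-type regions of that strength. By the position of the region's centre in the GENCODE M21 annotation, 1580 of all shared lost regions (47.0%) lay in an intron, 172 in an exon, 290 (8.62%) within 1 kb of a transcript start and 1322 (39.3%) between genes. Regions kept in all 6 lay between genes in 61.4% of cases and in an intron in 30.6%. Promoters of coding genes held 158 of the 290 promoter regions, or 6.81% of the 2319 wild-type regions at such promoters. Promoters of processed pseudogenes held 61 (4.61% of 1324 wild-type regions there), lincRNA promoters 19 (3.55% of 535) and snoRNA promoters 11 (4.47% of 246). The shares at promoters of processed pseudogenes, lincRNAs and snoRNAs were near or below the 4.56% of all wild-type regions, and that at coding promoters was above it.

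Chromosome 8 held 442 of the shared lost regions, 8.81% of its 5018 wild-type regions, and the other autosomes ranged from 2.40% on chromosome 4 to 5.59% on chromosome 19. On chromosome 8 wild-type enrichment was lower for all regions, with a median lower log2 fold of 0.76 against 0.92 to 1.16 on the other chromosomes, and its share of regions without a peak in either *Dhx9* KO library was 12.4% against 3.44% to 8.92%. Its share without a peak in either *Uhrf1* KO library, 23.9%, lay inside the range of the other chromosomes, from 18.1% to 32.5%. The part that this lower enrichment plays in the count on chromosome 8 was not tested.

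**Figure D4:**
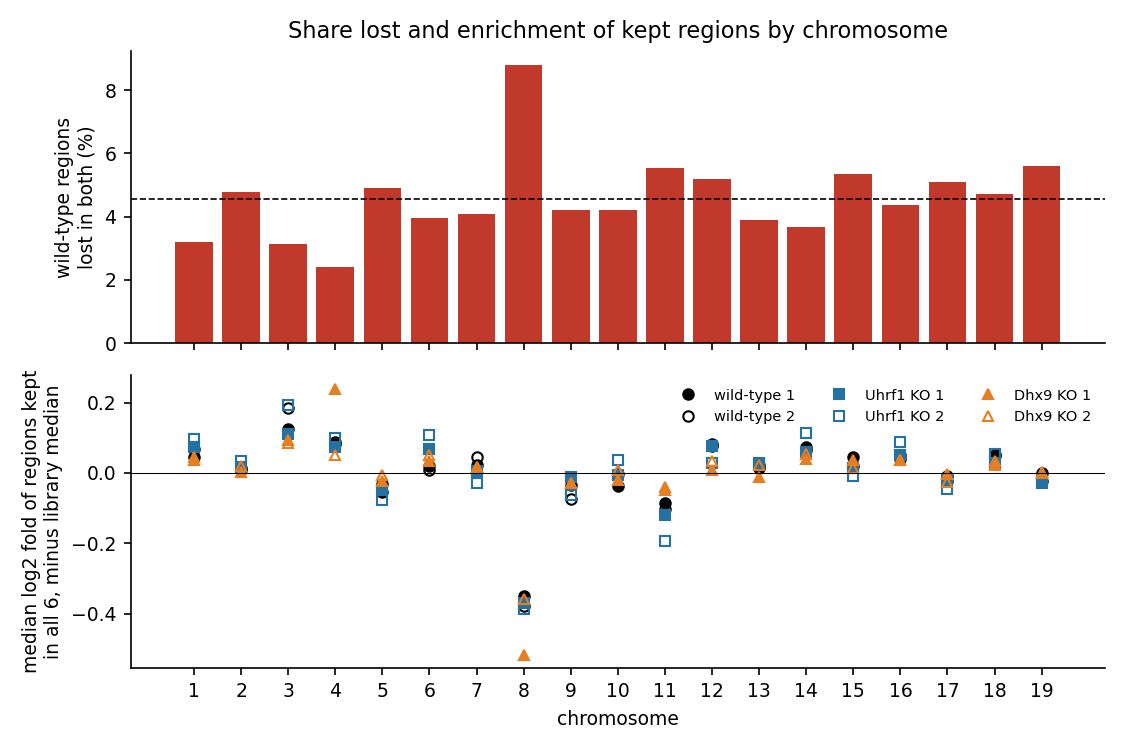
Upper plot, percentage of wild-type regions lost in both knockouts on each autosome, with the share over all autosomes (4.56%) as a dashed line. Lower plot, median log2 fold of the regions kept in all 6 libraries on each chromosome minus the median of that library over all chromosomes, with a symbol for each library. Chromosome 8 has the highest share, 8.81%, and the lowest enrichment in all 6 libraries, with values of −0.35 to −0.52.

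Shared lost regions were scattered, with a median of 147400 bp to the nearest other one. The nearest knockout peak was a median of 3600 bp away, and 2045 regions (60.8%) had a peak of at least 1 knockout library within 5 kb, with 611 (18.2%) within 1 kb. Taken singly, *Uhrf1* KO replicates 1 and 2 had a peak within 5 kb of 17.8% and 31.9% of the regions and *Dhx9* KO replicates 1 and 2 of 46.8% and 42.0%. At the other end, 45 regions (1.34%) had no knockout peak within 50 kb. Their lower wild-type log2 fold had a median of 0.92, and 11 of them lay at a transcript start. Kept regions within 10 kb of a shared lost region (n = 1182) had a median difference in log2 fold of 0.10 between *Uhrf1* KO and wild-type cells and of −0.18 between *Dhx9* KO and wild-type cells, and the differences over all kept regions were 0.15 and −0.21.

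*Esrrb*, which encodes an orphan nuclear receptor that helps maintain pluripotency, held the longest run of neighbouring shared lost regions. This gene and the others with several such regions were singled out after their values were seen. Of 15 pluripotency genes in the list used here, 5 had a wild-type region within 5 kb and *Esrrb* was the gene among them with a shared lost region. The gene spans 161 kb (chr12:86361117-86521628), and 19 and 18 peaks covered 93.8 and 85.8 kb of it in wild-type replicates 1 and 2. *Dhx9* KO replicates 1 and 2 had 11 and 10 peaks over 55.6 and 50.8 kb, *Uhrf1* KO replicate 2 had 5 peaks over 26.2 kb, and *Uhrf1* KO replicate 1 had 2 peaks over 3.2 kb. Over all autosomes the peaks covered 412 and 397 Mb in wild-type, 198 and 335 Mb in *Uhrf1* KO and 407 and 394 Mb in *Dhx9* KO. The gene was picked by these same calls, so its lower coverage in the knockouts is a description only.

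The knockout peaks that remained in *Esrrb* lay mainly in its 5′ part. Of 13 wild-type regions within 5 kb of the gene, 8 were shared lost regions, and 6 of them followed each other over 60 kb, from 106 to 166 kb past the start, without a peak of any knockout library between them. In the strongest of these (chr12:86501801-86504600, intron) wild-type replicates 1 and 2 had 125 and 120 ChIP reads over 70 and 67 background reads, log2 folds of 1.00 and 1.06. The weakest (chr12:86494601-86498600, intron) had 124 and 88 ChIP reads over 110 and 63 background reads, log2 folds of 0.33 and 0.70. A region over an internal transcript start (chr12:86467401-86471400) had 116 and 107 ChIP reads and log2 folds of 0.73 and 0.53. Further 5′, the region at 22.7 to 54.9 kb from the start had a peak in every library, with log2 folds of 1.16 and 1.28 in wild-type, 0.46 and 0.50 in *Uhrf1* KO and 0.96 and 0.80 in *Dhx9* KO.

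**Figure D5:**
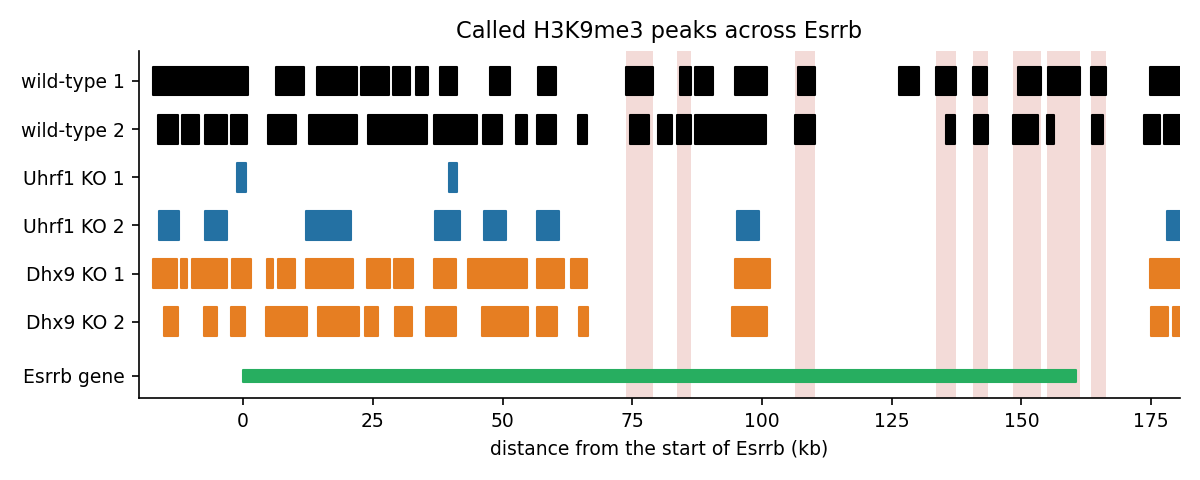
Called H3K9me3 peaks of the 6 libraries (bars, 1 row for each library) by distance from the start of *Esrrb* in kb, with the gene as a green bar and the shared lost regions shaded. All 8 shaded regions begin 73.9 kb or more from the start, and knockout peaks lie mostly nearer to the start, with 19 wild-type peaks in the gene in replicate 1 against 2 in *Uhrf1* KO replicate 1.

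Runs of at least 3 neighbouring wild-type regions that were all shared lost regions numbered 39, with 124 regions in all, and 11 of the runs were on chromosome 8. The run of 5 lay over *Epb41l1*, which encodes a protein of the membrane skeleton (chr2:156374801-156457600), with lower log2 folds of 0.30 to 1.07. The runs of 4 lay over *Agap1*, a GTPase-activating protein of membrane traffic (chr1:89529001-89556600), and over *Tpcn1*, *Rita1* and *Ddx54* (chr5:120535801-120617400). The *Agap1* run had no knockout peak across its 27.6 kb, while the *Epb41l1* span held 1 peak in each *Dhx9* KO library, between the shared lost regions. Of the 1657 genes that held the centre of a shared lost region or lay at one with their promoter, 1400 had 1 and 28 had 4 or more. *Csmd1*, a large gene for a membrane protein with complement-like domains, had the most with 10 of 78 wild-type regions, while in *Tango6* 5 of 7 wild-type regions were lost in both.

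The strongest shared lost regions of 2 kb or longer were rich in masked repeats. At chr8:20647001-20650200 wild-type replicates 1 and 2 had 78 and 135 ChIP reads over 8 and 18 background reads, log2 folds of 3.44 and 3.13. Its bases were 92.8% masked with 0.94 CpG per kb, and the nearest *Dhx9* KO peak lay 2200 bp away in both replicates. Nearby, chr8:20696201-20698400 (log2 folds 2.52 and 2.47) and chr8:20700601-20705600 (2.40 and 2.00) were also among the 5 strongest and 99.5% and 99.9% masked. The remaining places went to chr11:91754001-91756200 (107 and 76 ChIP reads, log2 folds 2.32 and 2.14, 62.2% masked) and chr12:36777001-36779000 (86 and 84 ChIP reads, log2 folds 2.06 and 2.09, 69.3% masked). All 5 lay outside GENCODE genes, and the first overlaps the RefSeq gene *Gm46074*.

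The region with most reads was ribosomal DNA. The segment chr17:39842201-39849000 holds the RefSeq pseudogene *Rn18s-rs5* of 18S ribosomal RNA and the start of the lincRNA *Gm26917*. It had 24450 and 24134 ChIP reads in wild-type replicates 1 and 2 over 19839 and 19834 background reads, so the log2 folds were low, 0.46 and 0.50. CpG density was 89.0 per kb, with an observed over expected CpG ratio of 0.94. Ribosomal genes are known to be present in many more copies than the assembly holds, so reads of several copies may be placed here. The other wild-type region that matched it over at least 300 bases at 95% identity or more and with the longest match, 908 bases (chr6:3194801-3215600), was kept in all 6 libraries with log2 folds of 2.17 and 1.98 in wild-type, 1.29 and 1.56 in *Uhrf1* KO and 1.85 and 1.29 in *Dhx9* KO.

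The other members with most reads had low folds. An intron of *Atp11a*, a phospholipid flippase, held the longest of all (chr8:12760801-12813400, 52600 bp), with 2177 and 1895 ChIP reads and log2 folds of 0.28 and 0.44. *Smpd3*, a neutral sphingomyelinase (chr8:106256801-106280000), had 1058 and 1094 ChIP reads and log2 folds of 0.41 and 0.49. A pair of intergenic regions completed this group. At chr11:109010201-109013200 there were 1336 and 1374 ChIP reads with log2 folds of 0.32 and 0.43, and at the 600-bp region chr3:5860201-5860800 there were 1059 and 974 over 926 background reads in both, with log2 folds of 0.35 and 0.29. Each of these was called in wild-type cells at a fold well under the 1.31 that was the median of kept regions.

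At promoters of coding genes, the 10 with the highest wild-type enrichment included 5 olfactory receptor genes, which encode odorant receptors of the nose. The share of such genes among all wild-type regions at coding promoters of similar strength was not counted. Of 535 olfactory receptor genes with a wild-type region within 5 kb, 22 (4.11%) had a shared lost region there. *Olfr684* (chr7:105156801-105157800) had 54 and 53 ChIP reads in the wild-type replicates over 14 background reads in both, log2 folds of 2.11 and 2.14. *Olfr1490*, *Olfr705*, *Olfr403* and *Olfr122* had lower log2 folds of 2.09, 1.77, 1.71 and 1.61. These regions were 800 to 1000 bp long, and 0.8% to 10% of their bases were masked as repeats.

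*Ins1*, an insulin gene of pancreatic beta cells, stood in the same group (chr19:52264001-52265000). It had 64 and 68 ChIP reads over 19 and 13 background reads, log2 folds of 1.91 and 2.61, and the nearest knockout peak was 59400 bp away, the most distant of the 10. *Hist1h2bc*, a histone H2B gene (chr13:23684201-23684600), had 42 and 66 ChIP reads over 15 background reads in both, log2 folds of 1.64 and 2.36, in a CpG-dense region of 92.5 CpGs per kb. *Fam135b*, *AU041133* and *Gk2*, a glycerol kinase gene, completed the group with lower log2 folds of 1.57, 1.54 and 1.48.

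CpG-dense members were few. An observed over expected CpG ratio of at least 0.6, as in CpG islands, was found in 23 shared lost regions (0.684%), against 0.396% of all wild-type regions. The densest lay at the promoter of *Foxc2*, a forkhead transcription factor (chr8:121116201-121118000, 116 CpGs per kb), with 82 and 67 ChIP reads over 56 and 44 background reads and log2 folds of 0.71 and 0.82. *Thap1*, a zinc finger factor, followed (chr8:26158201-26158600, 110.0 CpGs per kb, log2 folds 0.42 and 0.45). The short region chr16:17222201-17222400 had 95 CpGs per kb and 304 and 354 ChIP reads over 227 background reads in both.

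Gene groups were described by how many of their loci, the gene with 5 kb on each side, held a shared lost region among those with a wild-type region. Over all coding genes this was 1808 of 12889, or 14.0%. A locus with more wild-type regions has more places for a shared lost region, and the groups were not matched for this. None of 18 loci of germline genes that are silenced by DNA methylation, none of 12 loci of two-cell-stage genes and none of 7 loci of the H3K9 and DNA methylation machinery held one. Among imprinted loci that the study names, it was 3 of 18, and among other imprinted genes 1 of 13. From reads in peaks, the paper reports a decrease of H3K9me3 at imprinted loci in *Uhrf1* KO. A shared lost region needs the absence of a peak in both knockouts, an unlike measure, so these counts do not bear on that decrease. Whether shared lost regions at imprinted loci lie in imprinting control regions, which regulate expression by parent of origin, was not tested. *Plagl1*, an imprinted zinc finger gene, held an intronic region (chr10:13078001-13080800) among 5 wild-type regions at its locus. This intronic region had 89 and 120 ChIP reads and log2 folds of 0.43 and 0.86 in wild-type replicates 1 and 2. *Mest*, an imprinted hydrolase gene, held chr6:30742001-30744200 (42 and 66 ChIP reads, log2 folds 1.85 and 1.05). *Nap1l5*, in an intron of *Herc3*, lay within 5 kb of chr6:58902401-58903800 (38 and 48 ChIP reads, log2 folds 2.24 and 1.16). The *Mest* and *Nap1l5* loci had 3 wild-type regions each. *Trappc9*, the host of the imprinted *Peg13*, held 2 shared lost regions among 28 wild-type regions, with lower log2 folds of 0.80 and 1.14.

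Gene families that stand in clusters differed from each other in the share of loci with a shared lost region. Whether this follows from the number of wild-type regions at a locus was not tested. Clustered protocadherins, adhesion proteins of neurons, had a shared lost region at 26 of 51 loci, but these loci are packed so densely that only 8 regions lay behind the 26 genes. Those 8 were among 39 wild-type regions in a span of 417 kb on chromosome 18, where 9 were kept in all 6. The span was taken from the first to the last of the 8, so they set its limits. Over all wild-type regions the share lost in both was 4.56%, which is not a like measure for a span chosen in this way. Wild-type log2 folds of the 8 regions ran from 0.35 to 1.84. Zinc finger genes named *Zfp* had one at 32 of 265 loci (12.1%), near the level of all coding genes. Olfactory receptor genes had one at 22 of 535 loci (4.11%) and vomeronasal receptor genes at 6 of 188 (3.19%). Among *Hox* genes, the patterning factors, *Hoxa11* and *Hoxa13* shared 1 region (chr6:52248201-52254000, log2 folds 0.56 and 0.41) and *Hoxc12* had another (chr15:102938201-102941400, 0.46 and 0.85), out of 14 loci with a wild-type region.

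Regions at the edge of the rule show how it was met. Just inside it lay *Itpk1*, an inositol phosphate kinase gene (chr12:102645401-102653400), where the weaker wild-type peak had an FDR of 0.0498, *Foxred2* (0.0489) and chr11:119096201-119104000 (0.0489). Just outside lay *Fignl2* (chr15:101061801-101067000), *Gm14344* and chr12:8345001-8350000, each with a single knockout peak, in *Dhx9* KO replicate 1, with an FDR of 0.0499. The wild-type log2 folds of the *Fignl2* region, 0.64 and 0.43, were no lower than those of the *Itpk1* region, 0.57 and 0.22.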

How the data were processed

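H3K9me3 ChIP-seq of wild-type, *Uhrf1* KO and *Dhx9* KO mESCs was analysed from 6 deposited peak lists. The authors aligned reads with Bowtie2 2.3.4.3 to mm10, subsampled them and called peaks for each library with epic2, keeping duplicates (the submitters' processing notes list SICER 0.0.51). The methods name wild-type input as background for every list, but the *Uhrf1* KO lists hold other background counts than the rest, and the reason is not given in the sources used here. The deposited lists give for each peak the raw ChIP and background counts, the peak p-value with its FDR, a score, and a log2 fold (ChIP over background, relative to library size), all computed by the authors' peak caller. Total depth is not given in the lists, which fix only the ratio of ChIP to background library size. Precision of counts covers counting error only.

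Peaks were merged with Python 3.11.15, pandas 2.3.3 and numpy 2.4.6, and positions are 1-based. Merging and classification were tested on simulated data. Where a library had several peaks in a region, reads were summed and the highest log2 fold was taken. Base content and names come from GRCm38.p6, GENCODE M21 and RefSeq, and ribosomal DNA was matched with blastn 2.17.0. The files hold no reads outside peaks, so no count test of members was made.

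The members and gene lists were chosen with earlier results of these data known. Named were the 5 regions of 2 kb or longer with the highest lower wild-type log2 fold, the 5 with most reads, the 10 strongest coding promoters, those at imprinted and germline loci, and 3 regions on each side of the rule. Other names were chosen after their values were seen. Alternatives were the peak filter, list size, merging, the distance to a knockout peak, wild-type coverage, the unit of a region, the promoter and locus windows, and leaving out each library.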

Additional observations from a re-analysis of the deposited data

Results flagged for a closer look

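Chromosome X lies outside the rule, which was set to the autosomes, and it was looked at because signal in data outside the main count was sought. By the same criteria 29 of its 1328 wild-type regions (2.18%) had no peak in any knockout library, with a median lower wild-type log2 fold of 1.77. This share has no control of its own, and the difference from the autosomes was not tested.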

How the results depend on the processing

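The count of shared lost regions, 3364, moved by less than 1.5 times under 7 of 11 settings that kept all libraries, which does not say that the regions were the same, and its share of wild-type regions, 4.56%, moved under most. With the strict FDR of 1e-10 or a log2 fold of 1 applied to every list the share was 6.94% and 8.03%, from regions with a higher median lower log2 fold of 1.10 and 1.14 against 0.63, with lists of equal size 5.75%, and with coverage of at least 50% by each wild-type library 5.89%. Applying the strict FDR to wild-type peaks alone left 421 regions (1.01%). Asking for no knockout peak within 1 kb gave 3.73%, and within 5 kb 1319 regions (1.79%). Taking the parts shared by both wild-type libraries as units gave 5167 (4.97%). Among settings chosen after seeing the data, a lower wild-type log2 fold of at least 1 gave 772 (2.05%) and leaving out chromosome 8 gave 4.25%. Leaving out a library gave 3545 to 10727 regions and 4.74% to 11.7%. The count rose by over 1.5 times without wild-type replicate 1 (10727), wild-type replicate 2 (9697), *Dhx9* KO replicate 1 (8868) or *Dhx9* KO replicate 2 (5301), since fewer lists then had to meet the rule. A promoter window of 2 kb raised the promoter share from 8.62% to 14.5%, and a locus window of 20 kb raised the coding genes with a shared lost region from 1808 to 2834. With replicate 2 choosing, 38.5% of regions lacked both knockout peaks in the other replicate, against 45.1%.

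No paired analysis was possible because the count comes from no test, and same-numbered libraries were read together only in the replicate check. Total depth is not in the lists, so no interval for a knockout level can be given.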

Other observations

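Very short regions led the ranking when length was not limited, and they were singled out after their values were seen. The strongest was chr7:62698001-62698600, with 52 and 42 ChIP reads over 2 background reads in both wild-type replicates and log2 folds of 4.86 and 4.61, and a knockout peak lay 600 bp away. A region at the start of the snoRNA gene *Gm22941*, inside *Snhg14*, the host transcript of imprinted snoRNAs (chr7:59786401-59786800), had 64 and 34 ChIP reads over 4 background reads in both, log2 folds of 4.16 and 3.31.

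The member furthest from any knockout peak, 123200 bp, lay at the start of *Gm43869* (chr6:45300401-45301400), with 53 and 40 ChIP reads and log2 folds of 1.98 and 2.73. Close to it, a region in an intron of *Cntnap2*, a neuronal adhesion gene (chr6:45271801-45273600), had 49 and 69 ChIP reads and log2 folds of 1.87 and 1.68. Shared lost regions at olfactory receptor loci (21 regions) had a median lower log2 fold of 1.15 and those at vomeronasal receptor loci (6 regions) of 1.41, against 0.65 at *Zfp* loci (36 regions).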
